A study of Mus musculus with 3 samples.

Results

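Among the cells recovered from the mouse meninges were 186 with the transcripts of olfactory sensory neurons, of 7057 cells in all (2.64%). They were chosen from their own RNA. A cell was kept as an olfactory neuron cell when 7 marker genes (Omp, Gng13, Stoml3, S100a5, Cnga2, Gap43 and Gng8) together held at least 0.3% of its UMIs (unique molecular identifiers, 1 for each captured RNA molecule) and at least 3 of the 7 were detected. Every barcode with at least 500 UMIs, with a number of genes within the study's limits and under 8.3% mitochondrial UMIs counted as a cell. The high level of these 7 genes is therefore how the cells were found and is given as a description.

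The study profiled dissociated meninges of male C57BL/6J mice, 10 to 12 weeks old, by droplet single-cell RNA-seq of 3′ ends. Each of the 3 libraries held the cells of 4 mice: 2 libraries came from home cage mice (HC, 8 mice) and 1 from mice after chronic social defeat (CSD, 4 mice), which had met an aggressor daily for 14 days, were picked as stress-susceptible from behaviour, and were killed 2 h after the last defeat. Live nucleated single cells had been sorted from all pools, with no marker of cell type. Each library was run in its own chip lane, and the paper reports that another CSD pool was lost at droplet encapsulation. With 1 CSD pool, the effect of defeat cannot be told apart from the particulars of that pool of mice, its lane or its library.

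Olfactory sensory neurons sit in the lining of the nasal cavity. Their dendrite ends in a tuft of cilia that carry odorant receptors, and their axon runs through the cribriform plate, across the meninges, into the olfactory bulb. Each mature neuron is known to use 1 receptor gene out of a very large family, and the receptor signals through a special G protein, adenylyl cyclase and a cyclic nucleotide-gated channel. The neurons are renewed throughout life from basal cells of the lining, and pass through an immature stage marked by growth-associated genes before the olfactory marker protein gene Omp is switched on.

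HC replicate 1 held 66 olfactory neuron cells of 2599 cells, or 2.54% (exact Clopper-Pearson 95% interval 1.97 to 3.22). HC replicate 2 held 48 of 1702, or 2.82% (2.09 to 3.72). CSD replicate 1 held 72 of 2756, or 2.61% (2.05 to 3.28). The CSD share lay between the HC shares, though above both with a minimum of 1000 UMIs a cell (2.66%, 2.52% and 2.81% in the same order), with the marker genes at 1% of UMIs (2.23%, 2.53% and 2.54%) and with at least 4 of the 7 genes (2.46%, 2.47% and 2.58%). As first counted, the CSD share minus the HC mean was -0.067 points while the HC libraries themselves had an SD of 0.199 points (n = 2). These intervals cover counting error only, and with 1 library against 2 no test was made.

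The olfactory neuron cells were deeper than the rest of the preparation. Their median UMI count was 4384 and 4541 in the HC libraries and 4292 in CSD replicate 1, against 2468, 2188 and 2358.5 in all other cells. The median number of genes per cell was 1910, 2012.5 and 1864, against 957, 897.5 and 806. At a fixed depth of 1000 UMIs per cell the olfactory neuron cells still showed more genes, with medians of 643, 657.5 and 652 against 513, 529 and 445, after 3, 12 and 2 shallower neuron cells had been left out. The mitochondrial share was higher as well, at a median of 3.14%, 3.16% and 3.48% against 1.75%, 1.78% and 0.931%. In total the neuron cells contributed 315175, 211437 and 336727 UMIs, out of library totals of 9891861, 8814690 and 10206236.

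Few cells sat near the limit of the rule. Of the 186 cells, 7 had marker shares under 0.6%, from 0.342% to 0.542%, and 9 had exactly 3 of the 7 genes. Just outside, 611 cells had 3 or more of the genes at a summed share under 0.3%, the highest at 0.273%, and 13 cells had 0.3% or more from fewer than 3 genes, with a median of 648 UMIs. The median marker share of the neuron cells was 2.66%, 2.65% and 2.76%. The same genes took 0.196%, 0.245% and 0.159% of the UMIs of empty droplets (barcodes with at most 100 UMIs) and 0.0382%, 0.055% and 0.0319% of those of other cells. HC replicate 2 stood apart in its depth. Its empty droplets held 24.1% of the library's UMIs, against 7.87% in HC replicate 1 and 5.48% in CSD replicate 1, and it had 8682 barcodes with more than 100 but under 500 UMIs, 94 of which met the marker rule (1.08%). The shares that met it were 1.07% (3 of 281) in HC replicate 1 and 1.18% (2 of 170) in CSD replicate 1.

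The genes of the rule were at high levels in all 3 libraries. Levels are given as CPM, the counts of a gene per 1000000 of the UMIs summed over the olfactory neuron cells of a library, in the order HC replicate 1, HC replicate 2, CSD replicate 1. Omp, the olfactory marker protein (chromosome 7, 98143359 to 98145502, GRCm38), was at 4781, 5150 and 6038 CPM. Stoml3, a stomatin-like protein of the sensory cilium, was at 5216, 5983 and 7291 CPM, and S100a5, a calcium-binding protein, at 8687, 13148 and 10751 CPM. Gng13, a G protein gamma subunit of mature neurons, was at 6571, 4299 and 5268 CPM. Cnga2, the main subunit of the cyclic nucleotide-gated channel, was at 390, 411 and 475 CPM. The 3 libraries differed by less than 2-fold for each of these genes. Of the markers of the immature stage, the growth-cone protein gene Gap43 was at 222, 118 and 163 CPM and the G protein gamma gene Gng8 was at 108, 75.7 and 83.2 CPM. In all other cells Omp was at 90.1, 131 and 81.1 CPM.

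**Figure D1:**
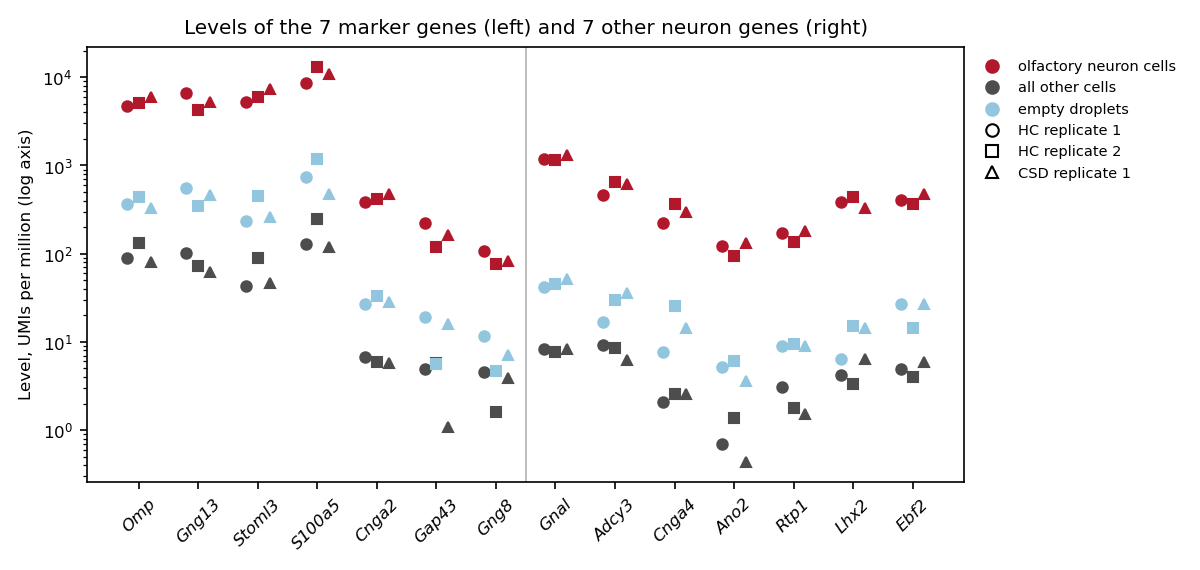
Levels in CPM (vertical log axis) of the 7 genes that chose the cells and of 7 other neuron genes, in the olfactory neuron cells, all other cells and empty droplets; circles are HC replicate 1, squares HC replicate 2 and triangles CSD replicate 1. For each gene the 3 neuron values lie above every value of the other cells and of the empty droplets, as for Omp at 4781, 5150 and 6038 in neuron cells and 90.1, 131 and 81.1 in other cells.

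The genes of odour transduction, none of which was used to choose the cells apart from Cnga2, were measured next. All 14 of the listed genes were higher in the olfactory neuron cells than in the other cells in every library, and 13 of the 14 were at least 10 times higher in every library. Summed, the list stood at 4750, 5259 and 5580 CPM in neuron cells and at 155, 231 and 150 CPM in other cells. Over all 3890 genes with a UMI in more than 15% of the olfactory neuron cells, 14.1% (549 genes) were at least 10 times higher in every library. Since the cells had been chosen by genes of the same cell type in this contrast, these ratios are descriptions with no test.

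Gnal, which encodes the olfactory G protein alpha subunit, was at 1199, 1145 and 1330 CPM against 8.4, 7.75 and 8.33 in other cells. Adcy3, the adenylyl cyclase that it activates, was at 466, 648 and 624 CPM against 9.2, 8.54 and 6.17. The other channel subunits, Cnga4 at 222, 369 and 294 CPM and Cngb1 at 175, 137 and 169 CPM, were likewise near 0 elsewhere, with no other-cell value above 3.22 CPM. Ano2, the calcium-activated chloride channel that amplifies the current, was at 124, 94.6 and 134 CPM. Rtp1 and Rtp2, which bring receptors to the cell surface, were at 171, 137 and 181 CPM and at 200, 203 and 241 CPM. For each of these genes the 3 neuron values lay above all 3 values of the other cells. The 1 gene below 10 times was Gnb1, the beta subunit shared by many G proteins, at 1076, 1320 and 1212 CPM against 96.2, 175 and 107 CPM.

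Genes of mature neurons followed the same pattern. Of 13 listed genes, 12 were at least 10 times higher than in other cells in every library, and the list summed to 6942, 7506 and 8090 CPM against 82.5, 120 and 68.7. The most abundant was Nsg1, an endosomal protein of neurons, at 1986, 2133 and 2593 CPM. Elavl3, a neuronal RNA-binding protein, was at 685, 719 and 698 CPM, and the sodium channel gene Scn9a at 549, 482 and 552 CPM. Nrsn1 was the exception, with 9.52, 14.2 and 0 CPM.

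The transcription factor list held 17 genes, all higher in the neuron cells in every library, 8 of them at least 10 times. Its members included the whole EBF family (the Olf-1 proteins, named for their binding sites in olfactory genes). Ebf1 was at 1133, 856 and 938 CPM, Ebf2 at 406, 369 and 469, Ebf3 at 178, 147 and 163 and Ebf4 at 69.8, 56.8 and 62.4 CPM. Ebf1 is also a gene of B cells, and stood at 208, 370 and 177 CPM in the other cells. Lhx2 and Emx2, homeodomain factors needed for receptor expression, were at 387, 435 and 330 CPM and at 92, 56.8 and 59.4 CPM. Atf5, a stress-response factor that receptor expression is known to induce, was the most abundant, at 1586, 1618 and 1785 CPM.

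Because EBF proteins and their sites were described in this cell type, promoters were searched for the letters of an EBF site. The motif TCCCNNGGGA (N is any base, and the motif reads the same on both strands) was looked for in the RefSeq promoters of GRCm38.p6, from 250 bases before to 50 bases after each start. It occurred in 1.06% of 27025 genes, in 1.39% of the 3030 tested genes with a promoter entry, and in 2.71% (11) of the 406 entries among the 549 genes that were at least 10 times higher in the neuron cells. The shorter core CCCNNGGG, which the first motif contains, occurred in 15.4%, 20.8% and 23.9%. TAATTA, a homeodomain-type motif, occurred in 6.12%, 3.17% and 6.4%. No test was made, and a match is not a binding site. Of the 5 genes of the rule with a promoter entry, none held TCCCNNGGGA, and Cnga2 and Gng13 held CCCNNGGG. The 11 matches were led, by the ratio of neuron cells to other cells, by Acbd7, an acyl-CoA binding protein gene at 942, 889 and 1001 CPM, and by Gfy, which encodes a Golgi protein of olfactory neurons, at 1034, 1428 and 1259 CPM. The 100 bases before their starts are shown, with the match in capitals, for Acbd7 from the plus strand of chr2:3336068-3336167 and for Gfy from the minus strand of chr7:45179598-45179697.
Acbd7: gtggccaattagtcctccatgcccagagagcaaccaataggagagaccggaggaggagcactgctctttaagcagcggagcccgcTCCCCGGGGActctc
Gfy: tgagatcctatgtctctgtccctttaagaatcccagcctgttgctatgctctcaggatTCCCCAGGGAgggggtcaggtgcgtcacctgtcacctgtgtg
The match ended 5 bases before the start in Acbd7 and 32 bases before it in Gfy.

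Cilia, axon and synapse genes were also present. All 16 listed genes of cilia were higher in the neuron cells in every library and 8 were at least 10 times higher, among them Dynlrb2, a dynein light chain, at 159, 180 and 232 CPM against at most 2.78 in other cells. Of 18 listed genes of axon growth and guidance, 13 were at least 10 times higher. Map1b, a microtubule-associated protein of axons, was at 1336, 1622 and 1464 CPM, and Epha5, an ephrin receptor, at 314, 449 and 446 CPM. The guidance ligand gene Sema3f was at 0, and Nrp1, a semaphorin receptor, was lower than in other cells in 1 library, at 57.1, 56.8 and 47.5 CPM against 79.1, 56.4 and 33.9. Of 16 synapse genes, 8 were at least 10 times higher, including Slc17a6, the vesicular glutamate transporter of these neurons, at 76.1, 89.9 and 163 CPM. Snap25, a protein of vesicle fusion, was at 197, 345 and 342 CPM. The dopamine receptor gene Drd2 was at 0.

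Among genes outside these lists, the highest ratios of neuron cells to other cells belonged to Glb1l2, Lrguk, Lrrc3b, Kif27, Stxbp5l, Cfap58, Eef1a2, Cfap44, Kcnh3 and RP24-492L15.6. Glb1l2, a beta-galactosidase-like gene, had 77 UMIs in the 186 neuron cells and 7 in the 6871 other cells, at 102, 89.9 and 77.2 CPM in neuron cells. Lrrc3b, a leucine-rich repeat gene, was at 85.7, 151 and 74.2 CPM. Kif27, Cfap58 and Cfap44 are genes of cilia and flagella, and stood at 44.4, 47.3 and 41.6 CPM, at 34.9, 18.9 and 50.5 CPM and at 25.4, 47.3 and 56.4 CPM. Each of the 10 had at most 9 UMIs in all other cells together, so that the ratios rest on few molecules in the denominator.

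**Figure D2:**
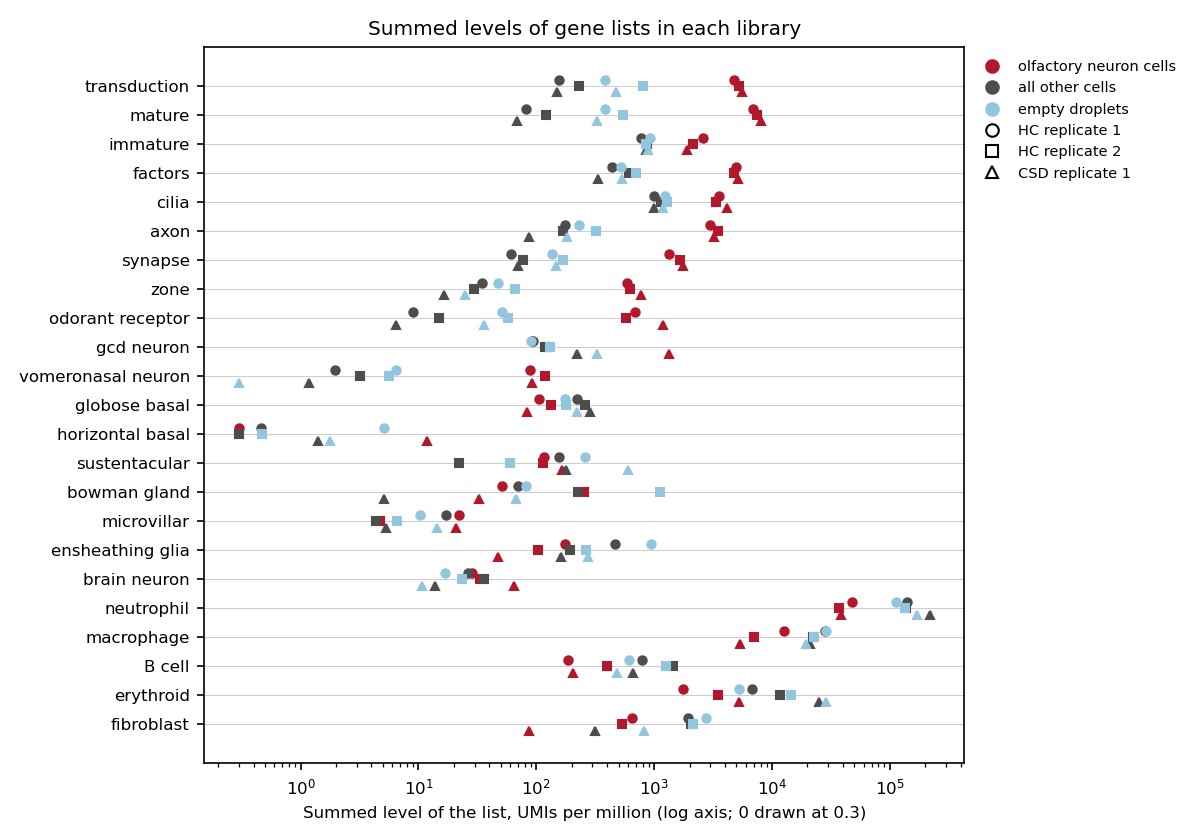
Summed level of each gene list in CPM (horizontal log axis, 0 drawn at 0.3) in the olfactory neuron cells, all other cells and empty droplets, with a circle for HC replicate 1, a square for HC replicate 2 and a triangle for CSD replicate 1. The lists of neuron genes, from transduction to odorant receptors, lie higher in neuron cells, for example 4750, 5259 and 5580 for transduction, and the lists of blood and immune cells lie lower in them than in other cells.

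Odorant receptor genes were read cell by cell. Of the 186 olfactory neuron cells, 108 (58.1%, exact 95% interval 50.6 to 65.2) had a UMI of at least 1 of the 1126 Olfr genes in the file. The share was 40 of 66 (60.6%) in HC replicate 1, 21 of 48 (43.8%) in HC replicate 2 and 47 of 72 (65.3%) in CSD replicate 1, so HC replicate 2, which held 12 of the 17 neuron cells under 1000 UMIs, was the lowest. In all other cells, at their lower depth, the share was 209 of 6871, or 3.04%, where median UMI counts were 2468, 2188 and 2358.5 by library. Thinned to 1000 UMIs a cell, the shares were 33.7% of 169 olfactory neuron cells and 0.915% of 6119 other cells.

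Most cells with a receptor had 1 alone. Of the 108, 95 (88%, exact 95% interval 80.3 to 93.4) had exactly 1 receptor gene, 12 had 2 and 1 had 3. The 95 include cells with a single receptor UMI, which could show no more than 1 gene. In 12 of the 13 cells with more than 1, the second receptor had a single UMI. In 2 cells of HC replicate 2 both genes had 1 UMI, and the first in the order of the file was taken as the leader, Olfr1045 in one and Olfr1238 in the other. The remaining cell, in CSD replicate 1, was led by Olfr1178, with 5 UMIs of a second gene. Counting only genes with 2 or more UMIs in a cell, 75 of 186 neuron cells (40.3%) had a receptor, 74 of these exactly 1, against 2 of 6871 other cells (0.0291%). Of the 62 neuron cells with 3 or more receptor UMIs, 51 had all of them from 1 gene.

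**Figure D3:**
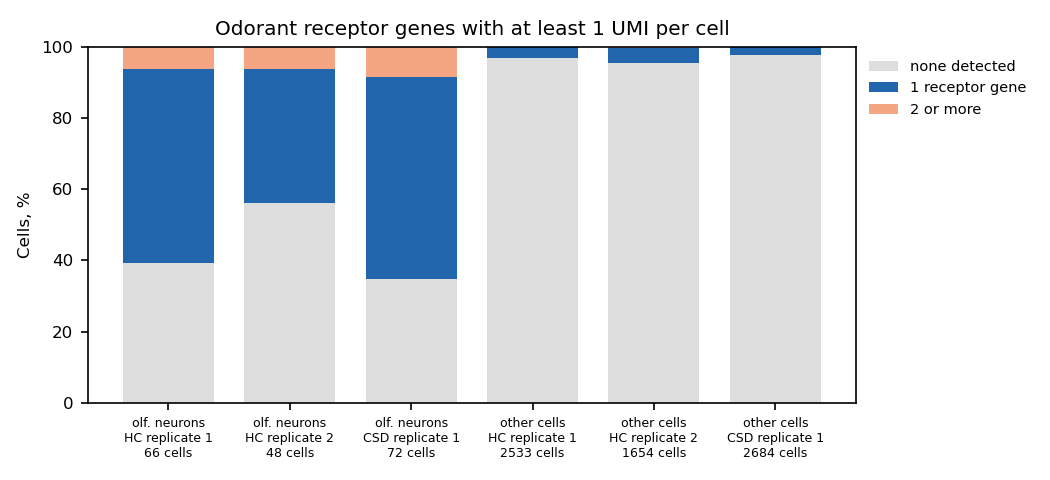
Share of cells (vertical axis, %) with no odorant receptor gene detected, with 1 gene and with 2 or more, at 1 UMI or more, in the olfactory neuron cells (left 3 bars) and all other cells (right 3 bars) of each library. A receptor was found in 60.6%, 43.8% and 65.3% of the neuron cells and in 3.04%, 4.41% and 2.2% of the other cells.

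The receptors in use were diverse. The 108 cells had 88 different leading receptors, the gene with the most UMIs in a cell, and 72 of these led in 1 cell only. By library there were 38, 19 and 41 different leaders, and 9 receptors led in more than 1 library. Olfr536 (chromosome 7, 140500849 to 140507396) led in 3 cells with 64 UMIs in all, and Olfr171 on chromosome 16 in 3 cells of CSD replicate 1 with 33 UMIs. Olfr46 led in 1 cell of each library with 19 UMIs and Olfr1226 in 3 cells with 5 UMIs. Olfr722, Olfr414, Olfr1045, Olfr727, Olfr1507 and Olfr726 led in 2 cells each. In the other cells Olfr536 had 24 UMIs, and Olfr46 and Olfr1226 had none.

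The largest count of 1 receptor in a cell was 44 UMIs, of Olfr330. By chromosome, 22 leading receptors in 28 cells lay on chromosome 2, where the file has 264 receptor genes. Chromosome 14, with 39 receptor genes in the file, had 14 leaders in 18 cells, and chromosome 7, with 231, had 12 in 17 cells. All told the leaders lay on 14 chromosomes, from the 86 whose identifier matched GENCODE M21. How reads of receptor genes of near-identical sequence were assigned was not tested, so the identity of single receptors and the second receptors at 1 UMI are uncertain. None of 15 trace amine-associated receptor genes (Taar) and none of 330 vomeronasal receptor genes had a UMI in the neuron cells.

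Maturity was read from the genes that chose the cells, so that the division is in part set by the rule. A cell needed 3 of the 7 genes, and one with Gap43 and Gng8 alone could not enter. With the 5 mature genes of the rule set against Gap43 and Gng8, 182 of 186 cells (97.8%) had more UMIs of the mature genes, in 65 of 66, 48 of 48 and 69 of 72 cells by library. Near the cut were 7 cells, and 31 cells had any UMI of Gap43 or Gng8. This division is a range and no cell type, and nothing is read from its share.

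Genes outside the rule were read on both sides. Of the 4 cells of the immature side, 3 were from CSD replicate 1, and 1 of these is the Car2-rich cell described with the comparison of CSD and HC, which had 19 UMIs of Stmn2 and none of Tubb2b, Calb2 or Adcy3. Stmn2, a growth-cone protein, had 11 to 29 UMIs in each of the 4 cells of the immature side, and was detected in 58.8% of the mature side. Tubb2b, a tubulin of young neurons, was found in 3 of the 4 and in 18.1% of the mature side. Calb2, the calcium-binding protein calretinin, was found in 3 of the 4, at 19, 21 and 21 UMIs, and in 24.2% of the mature side. Adcy3 was found in none of the 4 and in 79.7% of the mature side. These cells are too few for a comparison of libraries. Over all neuron cells the 13 immature genes summed to 2621, 2138 and 1913 CPM, with Stmn1, a gene also of dividing cells, the most abundant at 742, 563 and 529 CPM.

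Receptor choice is known to follow zones of the nasal lining, and markers of different zones were read in the same cells. Nqo1, an enzyme of the dorsal zone, was detected in 15 neuron cells and Ncam2, an adhesion molecule of the other zones, in 55, with both in 1 cell. In CPM, Nqo1 was at 44.4, 61.5 and 65.3 and Ncam2 at 105, 52 and 74.2.

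Other cell types of the nasal lining and other neurons were looked for by their markers. Of the stem-like globose basal list, Kit was at 0 and Neurod1 was found in 3 cells, and the list, led by Hes6, summed to 105, 132 and 83.2 CPM against 223, 257 and 286 in other cells. Of 5 horizontal basal keratin and p63 genes, 4 were at 0, and Krt15, the fifth, had 4 UMIs. The sustentacular list, which marks the supporting cells, summed to 117, 114 and 166 CPM in neuron cells, led by Cbr2. It summed to 157, 22 and 178 CPM in other cells and to 260, 60.1 and 597 CPM in empty droplets. Of its 9 genes 2 were at 0, Ugt2a1 and Cyp1a2. The list of Bowman's gland genes summed to 50.8, 255 and 32.7 CPM in neuron cells and to 82.2, 1128 and 67.9 CPM in empty droplets. HC replicate 2 was highest in both, and nearly all of it was Scgb1c1, a secretoglobin. Of 4 vomeronasal neuron genes 3 were at 0, Trpc2 among them, and Gnao1, a G protein alpha subunit of many neurons, was at 88.8, 118 and 92.1 CPM. Of 10 brain neuron genes 7 were at 0, including Rbfox3, Slc17a7 and Gad1, and Eomes was the most abundant at 25.4, 28.4 and 41.6 CPM.

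Transcripts of blood cells were present in every library of neuron cells. The 8 neutrophil genes, led by S100a8, took a median of 3.31%, 3.16% and 3.77% of a neuron cell's UMIs, against 13.9%, 13.6% and 21.8% of the UMIs of other cells and 11.3%, 13.6% and 17.1% of those of empty droplets. The highest single neuron cells stood at 43.7%, 21.6% and 4.75%. The 9 macrophage genes, led by Lyz2, took 0.827%, 0.718% and 0.479%. By the sum of both lists, 8, 6 and 0 cells were over 2 times their library's median. Scrublet, a doublet caller, marked 7, 3 and 3 of the neuron cells, and all were kept. Between libraries 8, 6 and 3 cell barcodes were shared, and 2 neuron barcodes were also a cell of another library.

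The comparison of CSD with HC asked whether defeat changed the RNA of these cells. In the UMIs summed per library, 31 of 3890 genes passed an adjusted p of 0.05 (0.797%; edgeR quasi-likelihood test, Benjamini-Hochberg), 6 higher in CSD (0.154%) and 25 lower (0.643%), with 237 at an unadjusted p under 0.05. Of the 31, 27 were lower in neuron cells than in other cells in every library, a class with 648 of the genes tested. Of the 549 genes at least 10 times higher in neuron cells, 1 passed (0.182%), the neuropeptide gene Cartpt. The spread between the 2 HC libraries was pooled over all genes, so that each gene was tested against a shared spread and not its own, and CSD replicate 1, having no partner, was taken to share that spread. DESeq2 called 2 genes, Car2 and Mgp.

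Of the 79 genes tested in the neuron lists 1 passed, near the 0.797% of all genes, so that nothing particular to neuron genes is read from the count. It was Tubb2b, at 213, 156 and 80.2 CPM, a fall of 1.28 on the log2 scale (SE 0.334, adjusted p = 0.0173 by edgeR). It was below both HC libraries, but no longer passed with DESeq2, with RLE size factors, with at least 4 of the 7 marker genes, without the cells marked by the doublet caller, after subtraction of the empty-droplet profile or without a single cell rich in Car2 RNA. With cells thinned to 500 UMIs it was not among the genes tested. Its direction turned in no setting where it was tested, and subtraction left it 65, 32 and 26 UMIs by library. The median log2 fold change of the 79 genes was 0.04, beside -0.01 for all genes tested. None of the 12 tested transduction genes passed, with a median of 0.13 and a range of -0.31 to 0.52, and 6 of the 12 lay above both HC libraries, where 32.4% of all genes did. Cnga2, which is among these 12, also helped choose the cells. Adcy3 had a log2 fold change of 0.12 (SE 0.227, adjusted p = 0.999 by edgeR). Omp, whose level helped choose the cells, had 0.23, which is given as a description only. The list of immature genes had a median of -0.34 over 8 genes, 6 below both HC libraries, where 33.9% of all genes were.

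Car2 and Cartpt were the leading rises, and 1 cell carried them. Car2, a carbonic anhydrase, was at 85.7, 123 and 1313 CPM, a log2 fold change of 3.63 (SE 0.246, adjusted p = 1.77e-44 by edgeR). Cartpt was at 419, 586 and 1556 CPM, a log2 fold change of 1.59 (SE 0.219, adjusted p = 2.91e-10 by edgeR). A single cell of CSD replicate 1 held 413 of the Car2 UMIs, 83.4% of those in all neuron cells, where the next highest cell had 5, and 395 Cartpt UMIs, or 50.6%. Without it the log2 fold change was -0.27 for Car2 and -0.40 for Cartpt, neither of them passed, and 14 genes passed in all. Cartpt was found in 34, 20 and 26 cells of the libraries, with 10 or more UMIs in 3, 4 and 5 cells.

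This Car2-rich cell had 6998 UMIs, a marker share of 0.429%, and transcripts listed for another kind of olfactory neuron. It had 1 UMI of Gucy2d, the receptor guanylyl cyclase D, 1 of Cnga3, a cyclic GMP-gated channel subunit, and 3 of Pde2a, a cyclic GMP-stimulated phosphodiesterase, which with Car2 make up the whole list used for the guanylyl cyclase-D neurons of the nose. It was the only neuron cell with Gucy2d or with Cnga3. It had 10 UMIs of Omp, 1 of S100a5, 12 of Gng8, and none of Cnga2, Adcy3 or any odorant receptor. Sphkap (19 UMIs), Pax6 (14) and the secretogranins Scg2 (31) and Scg3 (17) were high in it, against 0, 1, 11 and 54 UMIs in all other neuron cells together. Its neutrophil share, 3.36%, was near the median of the neuron cells.

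**Figure D4:**
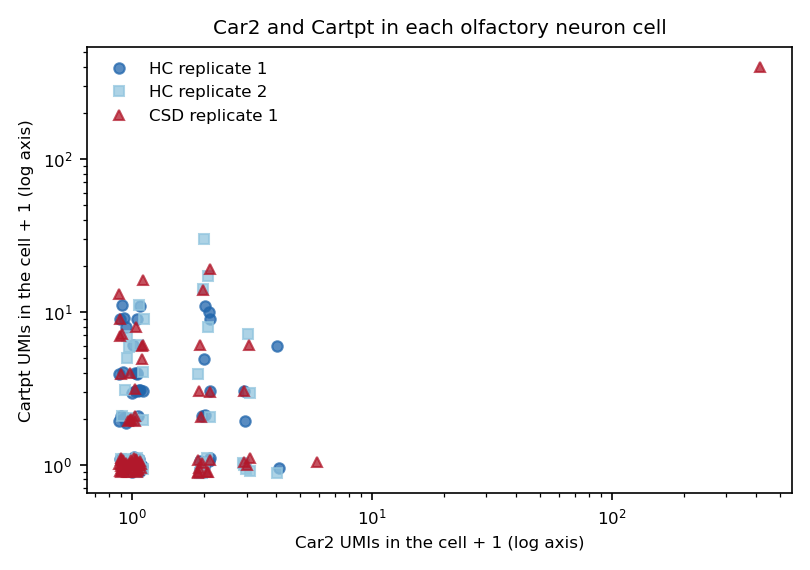
UMIs of Car2 (horizontal) and Cartpt (vertical) in each of the 186 olfactory neuron cells, both plus 1 on log axes with a small sideways jitter, coloured by library. A single CSD cell stands at 413 Car2 and 395 Cartpt UMIs, and no other cell has more than 5 Car2 UMIs or more than 29 Cartpt UMIs.

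Of the 25 genes that fell, 6 were on the macrophage list and 1, Mgp, on the fibroblast list. These were 6 of 7 tested macrophage genes, where 0.643% of all genes fell, and none rose, with a median log2 fold change of -2.17, and all 7 were below both HC libraries, where 33.9% of all genes were. The list of 9, whose most abundant gene was Lyz2, summed to 12666, 7066 and 5349 CPM in neuron cells and to 27997, 22473 and 20931 CPM in other cells. Mrc1, which marks tissue macrophages, was at 28.6, 0 and 0 CPM. C1qb, a complement subunit, was at 812, 322 and 125 CPM, a log2 fold change of -2.28 (SE 0.277, adjusted p = 2.96e-13 by edgeR), against 1494, 762 and 588 CPM in other cells. C1qc, of the same complex, fell by 2.27 on the log2 scale, at 470, 260 and 80.2 CPM. Without HC replicate 1 the changes were -1.38 for C1qb and -1.70 for C1qc. The HC libraries held 8 and 6 neuron cells over 2 times their library's median of neutrophil and macrophage genes and the CSD library none, and without these cells 24 genes passed, 23 of them among the 31.

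Some of these falls rested on 1 HC library. Pf4, a chemokine of platelets and macrophages, was at 267, 18.9 and 11.9 CPM, with a log2 fold change of -3.74 that was -0.62 without HC replicate 1, and 1 cell held 32.6% of its UMIs. It was not called by DESeq2 or by edgeR with RLE size factors (adjusted p = 0.167), at log2 fold changes of -3.66 and -3.74. Apoe, the apolipoprotein, was at 4401, 761 and 609 CPM, with a log2 fold change of -2.17 that was -0.35 without HC replicate 1. Scgb1c1 was at 25.4, 236 and 17.8 CPM, with a log2 fold change of -2.73 that was -0.55 without HC replicate 2. It had 64 UMIs, in 21.5% of all neuron cells, most of them in HC replicate 2. It was therefore among the genes tested only through the library where it was high. Subtraction of the empty-droplet profile left it 2, 0 and 4 UMIs, too few for a fold change. The macrophage receptors Trem2 (181, 104 and 23.8 CPM) and Cx3cr1 (121, 61.5 and 17.8 CPM) fell by 2.67 and 2.45 on the log2 scale, with changes of -2.07 and -1.71 without HC replicate 1. Trem2 passed in 8 alternative settings and no longer passed in 2, while for Cx3cr1 these counts were 3 and 7.

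Mgp, the matrix Gla protein of fibroblasts and smooth muscle, was at 476, 393 and 41.6 CPM, a fall of 3.44 on the log2 scale (SE 0.335, adjusted p = 4.15e-21 by edgeR). In other cells it was at 1115, 1334 and 150 CPM, also lowest in CSD. Sparc, another matrix protein, was at 111, 142 and 29.7 CPM, and fell by 2.11 on the log2 scale. The 7 fibroblast genes, led by Mgp and with Lum at 0, summed to 647, 530 and 86.1 CPM in neuron cells, 1938, 2055 and 316 CPM in other cells and 2730, 2138 and 817 CPM in empty droplets. The share of free RNA in the neuron cells, estimated from their neutrophil, macrophage and B cell genes relative to empty droplets, was 29.2%, 24.8% and 22.6%, highest in HC replicate 1 and lowest in CSD. After subtraction of the empty-droplet profile at that share 19 genes passed, but for 15 of them 1 group kept 3 UMIs or fewer, and of the 4 that remained 3 were among the 31. Of the 31 genes, 20 kept no UMI in CSD. The part of macrophage, fibroblast and free RNA in these falls was not tested.

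The other rises were haemoglobin genes. All 4 that were tested rose, where 0.154% of all genes did, and each was above both HC libraries, as were 32.4% of all genes. Hbb-bt was at 219, 364 and 772 CPM, a log2 fold change of 1.38 (SE 0.228, adjusted p = 4.49e-07 by edgeR), Hba-a2 had 0.97, Hbb-bs 0.94 and Hba-a1 0.84. HC replicate 1 was the lowest library for each, and without it the values of Hbb-bt, Hba-a2, Hbb-bs and Hba-a1 were 1.06, 0.47, 0.55 and 0.43. Hba-a1 and Hba-a2 each passed in 4 alternative settings and no longer passed in 7. For Hbb-bs these counts were 6 and 5, for Hbb-bt 8 and 3, and no direction turned. The 5 erythroid genes, led by Hbb-bs, with Alas2 at 9.52, 0 and 17.8 CPM, summed to 1758, 3453 and 5239 CPM in neuron cells, to 6757, 11649 and 24878 CPM in other cells and to 5234, 14422 and 28501 CPM in empty droplets, in the same order of libraries each time. Subtraction of the profile of empty droplets left none of the 4 haemoglobin genes a UMI in CSD, so that no fold change is given.

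**Figure D5:**
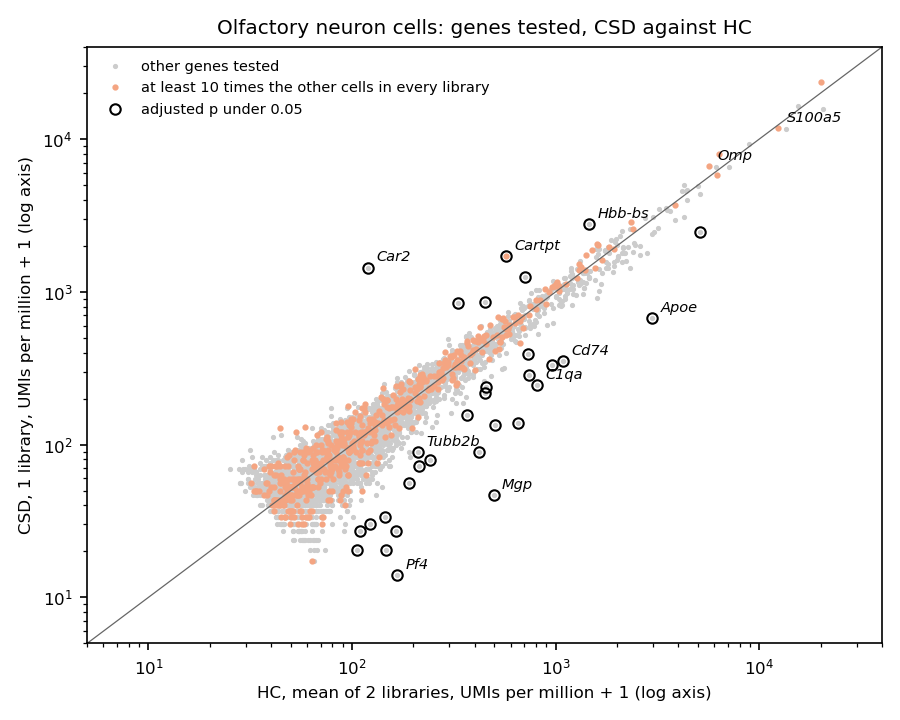
Level of each of the 3890 genes tested in the olfactory neuron cells, as CPM plus 1 after TMM scaling, in CSD (vertical log axis, 1 library) against the mean of the 2 HC libraries (horizontal log axis); the diagonal marks equal levels, orange points are genes at least 10 times higher in neuron cells than in other cells, and rings are the 31 genes past an adjusted p of 0.05. Cartpt is the only orange point with a ring.

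Among response genes, 1 of 7 tested immediate early genes passed, where 0.797% of all genes did. Jun, a subunit of the AP-1 factor, was at 355, 430 and 196 CPM, a fall of 1.04 on the log2 scale (SE 0.258, adjusted p = 0.00781 by edgeR). All 7 lay below both HC libraries, as did 33.9% of all genes, with a median log2 fold change of -0.89, among them Fos at 416, 426 and 255 CPM and Egr1 at 66.6, 42.6 and 26.7 CPM, neither of which passed. In other cells Fos was at 1032, 1099 and 735 CPM and Jun at 567, 642 and 322 CPM. The activity-regulated genes Arc and Npas4 were at 0 in the neuron cells. Atf3, a stress factor outside the list, was at 133, 80.4 and 26.7 CPM and fell by 2.09 on the log2 scale, with a change of -1.55 without HC replicate 1. It passed in 3 alternative settings and no longer passed in 7.

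No gene passed among 8 tested interferon-response genes (median -0.76, 7 below both HC libraries, where 33.9% of all genes were), 5 glucocorticoid-response genes (median 0.23) or 3 heat-shock genes (median 0.1). The 17 listed interferon-response genes summed to 2326, 2384 and 1820 CPM in neuron cells and to 6145, 6588 and 6344 CPM in other cells. In empty droplets the sum was 6450, 6314 and 6141 CPM, and the part of free RNA was not tested. The metallothioneins Mt1 and Mt2, which glucocorticoids induce, were at 2138, 1565 and 2269 CPM and at 793, 534 and 888 CPM, both above both HC libraries. B2m, the light chain of class I antigen presentation, was at 514, 463 and 288 CPM (log2 fold change -0.82, SE 0.246, adjusted p = 0.0885 by edgeR), against 1805, 1843 and 1524 CPM in other cells. Of 80 tested ribosomal protein genes 1 passed, Rps28, near the 0.797% of all genes, and 71 were below both HC libraries, where 33.9% of all genes were, with a median of -0.3. The ribosomal list was lowest in CSD in the other cells too, at 208714, 189423 and 161749 CPM. None of 7 tested neutrophil genes passed (median -0.04), and the 8 listed neutrophil genes summed to 47932, 37127 and 38319 CPM in neuron cells.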

How the data were processed

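The 3 libraries of dissociated mouse meninges (HC replicate 1, HC replicate 2 and CSD replicate 1, each a pool of 4 mice) were analysed. The deposited matrix held raw counts of UMIs per gene and barcode, which the authors made from 10x 3′ reads; per the submitters' processing notes, Cell Ranger 2 and mm10 were used. The number after the barcode gave the library. Counts were not normalized before deposit. Library totals were 8814690 to 10206236 UMIs, and the 280209, 187369 and 301286 UMIs of tested genes in the neuron cells set the precision of the tests.

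The olfactory neuron cells, their gene lists and the comparisons were chosen with earlier results of these data known. UMIs of the cells kept were summed per library and tested with edgeR 4.0.16 (TMM, quasi-likelihood, two-sided, Benjamini-Hochberg, threshold 0.05) in R 4.3.3, on genes with a UMI in more than 15% of the neuron cells, in place of the study's test over single cells, since cells are not replicates. That filter pooled the neuron cells of all libraries, so a gene could pass it through the group where it was high. DESeq2 1.42.0 was an alternative. The 2 HC sums leave 1 residual degree of freedom. The estimated prior degrees of freedom were infinite (common dispersion 0.0191), so each gene was tested against a spread shared by all genes, not the spread of its own 2 HC values. The fits were first tested on simulated data, in which part of the changes made was missed and some unchanged genes were called, so a gene that did not pass is not shown to be unchanged. The test of the difference between cell classes used 6 sums with the library as a block. Python 3.11.15, scipy 1.17.1 and Scanpy 1.11.5 (with its Scrublet) were used for counting. In CSD replicate 1 the automatic threshold marked 0.109% of cells, so a fallback cut, set for the top 5% of scores, was used. It marked 103 of the 2756 cells (3.74%). Marked cells were kept. Coordinates are from GENCODE M21 and promoters from RefSeq GRCm38.p6.

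Genes were named by a rule: the 7 genes of the marker rule, members of the lists, the 10 largest rises and falls past the threshold and beyond both HC libraries, the 10 highest ratios to other cells outside the lists, and the 10 receptors leading in the most cells. Acbd7, Gfy, Olfr330, Olfr1178 and the genes of the Car2-rich cell were named after their values were seen. Some members of the lists are not reported here by name.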

Additional observations from a re-analysis of the deposited data

Results flagged for a closer look

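The CSD effect differed between the olfactory neuron cells and all other cells for 137 of 4135 genes (3.31%; edgeR, adjusted p under 0.05), with 626 at an unadjusted p under 0.05 and 17 called by DESeq2. The log2 difference is the CSD effect in neuron cells minus that in other cells, with both classes read in the same 3 libraries. It was positive for 41 genes and negative for 96. Of the 31 genes called in the neuron cells alone, 17 were among the 137.

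The 96 are not a count of falls in the neuron cells. They include 7 of the 8 listed neutrophil genes, beside 96 of all 4135 genes tested. None of the 7 passed in the neuron cells alone, and all 7 were highest in CSD in the other cells. S100a8, a calcium-binding protein of neutrophils, had a difference of -1.14, at 22162, 13947 and 14427 CPM in neuron cells (HC replicate 1, HC replicate 2, CSD replicate 1) and 62949, 53216 and 87231 CPM in other cells. S100a9, its partner, had -1.11, Camp -0.98, Retnlg -0.96, Ngp -0.95, Lcn2 -0.87 and Ltf -0.85. The neutrophil genes together took 13.9%, 13.6% and 21.8% of the UMIs of other cells, and their part in the other differences was not tested.

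Among neuron genes, Nfib, a nuclear factor I gene, had a difference of 2.91, at 108, 104 and 157 CPM in neuron cells and 17.4, 22 and 3.14 CPM in other cells. Nfix, of the same family, had 1.2, at 431, 482 and 627 CPM against 28.8, 24.8 and 13.5. Map1b had 1.09, at 1336, 1622 and 1464 CPM against 39.9, 54.6 and 18.1. In all 3 the other cells were lowest in CSD, and none of the 3 passed in the neuron cells alone. Pcp4l1, on the list of mature neuron genes, had 0.88. Stmn1 had -0.89, at 742, 563 and 529 CPM against 484, 541 and 631.

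Among the genes named in the comparison of CSD with HC, the differences were -2.11 for Pf4, -1.69 for Trem2, -1.49 for C1qb, -1.4 for C1qc and -0.97 for Apoe, all 5 being falls in the neuron cells. In other cells Trem2, C1qb, C1qc and Apoe were also lowest in CSD, while Pf4 was at 319, 51.6 and 56.1 CPM, above HC replicate 2 in CSD. They were -0.77 for Hba-a1 and -0.74 for Hbb-bs, which were higher in CSD in both classes. Scgb1c1 had 3.61, at 48.3, 223 and 1.3 CPM in other cells. Of the response genes, B2m had -0.77, H2-D1 -0.98, Ifitm3 -0.72, Mt1 1.02 and Mt2 1.33. None of these response genes passed in the neuron cells alone. In other cells B2m, Mt1 and Mt2 were lowest in CSD, Ifitm3 was highest in CSD and H2-D1 lay between the HC libraries. Car2 had 2.1 and rested on the single cell that held 83.4% of its UMIs in the neuron cells.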

How the results depend on the processing

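The count of 31 genes was 2 with DESeq2, 14 with RLE size factors, 62 (of 7851 tested) with no filter on the share of cells, 18 with markers at 1% of UMIs, 3 with at least 4 of the 7 markers, 19 without cells marked by Scrublet, 19 after subtraction of the empty-droplet profile (4 with over 3 UMIs left in both groups) and 3 (of 482) with cells thinned to 500 UMIs. Added after seeing the data, it was 24 without cells high in neutrophil and macrophage genes and 14 without the Car2-rich cell. A minimum of 1000 UMIs gave 31 and the mature side alone 34. The single call among neuron lists became 0 with DESeq2, RLE, 4 of 7 markers, no Scrublet-marked cells, subtraction, thinning or no Car2-rich cell, and 3 on the mature side alone. Of 34 tested genes in lists of other cells 13 passed, where 0.797% of all genes did. These 13 calls became 2 with DESeq2, 7 with RLE, 2 with 4 of 7 markers, 2 when thinned and 6 without the Car2-rich cell. The number of list genes tested can differ between settings.

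No fold after subtraction is given for genes left 3 UMIs or fewer in a group, 24 of the 31. Directions reversed for Cartpt (-0.44, -0.46 and -0.40) and Car2 (-0.25, -0.24 and -0.27) with markers at 1%, on the mature side alone and without the Car2-rich cell, 3 settings that each leave that cell out. The cause of other moves was not tested.

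The 137 genes of the difference became 17 with DESeq2. The difference in share (-0.067 points) was 0.217 at a minimum of 1000 UMIs 0.161 with markers at 1%, 0.111 with 4 of 7 markers, 0.109 with no Scrublet-marked cells and 0.00602 at a mitochondrial limit of 5%, and -0.208 to 0.073 with either HC library left out. The mature share, 98.1% as a mean of libraries, was 97.2% to 97.9% with either left out. Cells with a receptor, 56.5% as a mean of libraries, were 38.9% at 2 UMIs and 33.1% when thinned, and those with exactly 1, 87.6%, were 99% and 100%. The cut at 2 UMIs drops second receptors at 1 UMI, and thinned neuron cells with a receptor had a median of 1 receptor UMI. Nothing is therefore read from the share with exactly 1 in these settings. No paired analysis was possible, as the labels pair no HC pool with the CSD pool and the replicate numbers are not a pairing. With an HC library left out no test was possible, and fold changes ranged from -0.62 to -4.39 for Pf4, -0.35 to -2.93 for Apoe and -0.55 to -3.62 for Scgb1c1.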

Other observations

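The olfactory neuron cells also differed from the rest of the preparation in genes of protein handling and metal binding, as a description with no test. The heat-shock list summed to 4597, 5146 and 5399 CPM in the libraries (HC replicate 1 and 2, then CSD), against 2372, 2730 and 2081 CPM in other cells, led by Hsp90ab1, a cytosolic chaperone. Mt1 was at 2138, 1565 and 2269 CPM against 482, 249 and 180 CPM, and Mt2 at 793, 534 and 888 CPM against 80.0, 47.7 and 28.4. Genes that glucocorticoids induce in many cells were not uniformly high, with Tsc22d3 at 34.9, 52 and 44.5 CPM against 203, 262 and 186 CPM in other cells, and Zbtb16 at 0.

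Calb2 was uneven among the neuron cells, found in 47 of 186 cells, 31 of them with 5 or more UMIs, and with 26 in the highest cell. Of all UMIs of the 7 marker genes in a library, 62.4%, 35.4% and 72.3% lay in the neuron cells, and HC replicate 2, with the largest share of UMIs in empty droplets, was the lowest.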
